A study of Homo sapiens with 6 samples.

Results

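The matrix metalloproteinases (MMPs), the ADAM and ADAMTS proteases and their tissue inhibitors (TIMPs) were followed with and without overexpression of the glutathione peroxidase GPX3 in A549, an established cell line from a human lung adenocarcinoma. Members were all genes that the deposited count table classes as protein coding and whose symbol begins with MMP, TIMP, ADAM or ADAMTS followed by a digit. This gave 67 of the 58735 genes in the table, namely 23 MMPs, 20 ADAMs, 19 ADAMTS genes, 4 TIMPs and MMP24OS. MMP24OS is named for its place on the strand opposite MMP24 and is no metalloproteinase, so it was kept apart. The series holds 6 libraries. The 3 Vector libraries are labelled WT for genotype and treatment, and the 3 OE_GPX3 libraries are labelled OE for both. The sources used here do not give the promoter of the GPX3 construct, the time after its introduction, or whether the cells were 1 clone or a pool. They do not say either that the replicates came from different cultures, and the p-values then measure only a spread that may be technical.

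MMPs are zinc-dependent enzymes that cut collagens, proteoglycans and other matrix proteins. They are made as inactive precursors, and the membrane-type MMPs and a few secreted ones carry a site for furin, a protease of the secretory pathway that removes the inhibitory part inside the cell. ADAMs are membrane proteins, of which ADAM10 and ADAM17 release the outer parts of growth factors, cytokines and adhesion molecules (shedding), while several others have lost the catalytic residues and act in adhesion. ADAMTS proteases are secreted and process procollagens, proteoglycans and von Willebrand factor. TIMPs bind the active site of MMPs and, with different preferences, of ADAMs and ADAMTSs. In lung tumours these families are studied for their part in invasion and in the release of ligands of the epidermal growth factor receptor.

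Libraries held between 15831693 and 18751815 counts. GPX3, the check of the labels, was at 36.5 ± 2.91 CPM (counts scaled to library size and by TMM factors, for comparing libraries) over the 3 Vector libraries and at 1234 ± 178 CPM over the 3 OE_GPX3 libraries (SD). The 5 epithelial markers KRT8, KRT18, KRT19, EPCAM and CDH1 were all detected, with a summed level of 20587 to 22879 CPM in Vector and 23691 to 31955 in OE_GPX3, and their part in the results below was not tested. Of the 8 alveolar type II markers only ABCA3, SFTPD and LAMP3 had enough counts to be tested, and SFTPA1 was at 0 counts. Endothelial markers summed to at most 1.04 CPM and fibroblast markers to at most 7.18 CPM in any library. The 10 leukocyte markers summed to 15.4 to 20.3 CPM in Vector and 20.3 to 22.4 CPM in OE_GPX3, most of it CD14, with PTPRC at 7 counts in all libraries together. Over all 14458 genes with enough counts to be tested, edgeR's quasi-likelihood test gave 38 calls with an adjusted p below 0.05, of which 14 were higher in OE_GPX3 and 24 lower. The split was 13 and 55 with scaling by total counts, 14 and 38 with upper-quartile scaling, and 76 and 43 with DESeq2.

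The families were unevenly transcribed. At least 1 count was seen for 51 of the 67 members, 31 had enough counts to be tested (46.3%, against 63.4% of protein-coding genes), and 9 reached a mean of at least 10 FPKM. FPKM are the authors' values per gene length, used here to compare genes with each other. The labels describe a small RNA protocol although nearly all counts lie on protein-coding genes, so such levels carry that uncertainty. The other 20 members with counts had between 1 and 41 counts over the 6 libraries together, and 16 members had none. Those 16 were MMP8, MMP13, MMP16, MMP20, MMP23B, MMP26, MMP27, ADAM2, ADAM7, ADAM18, ADAM20, ADAM29, ADAM30, ADAMTS3, ADAMTS5 and ADAMTS20. A count of 0 allows a level of up to 3 counts, that is 0.154 to 0.195 CPM depending on the library, and this limit covers counting error only. MMP23B has a near-identical copy in MMP23A, as ADAM20 has a close relative in ADAM21, so reads placed on more than 1 gene could be missing from them. MMP23A was at 0 counts as well.

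**Figure D1:**
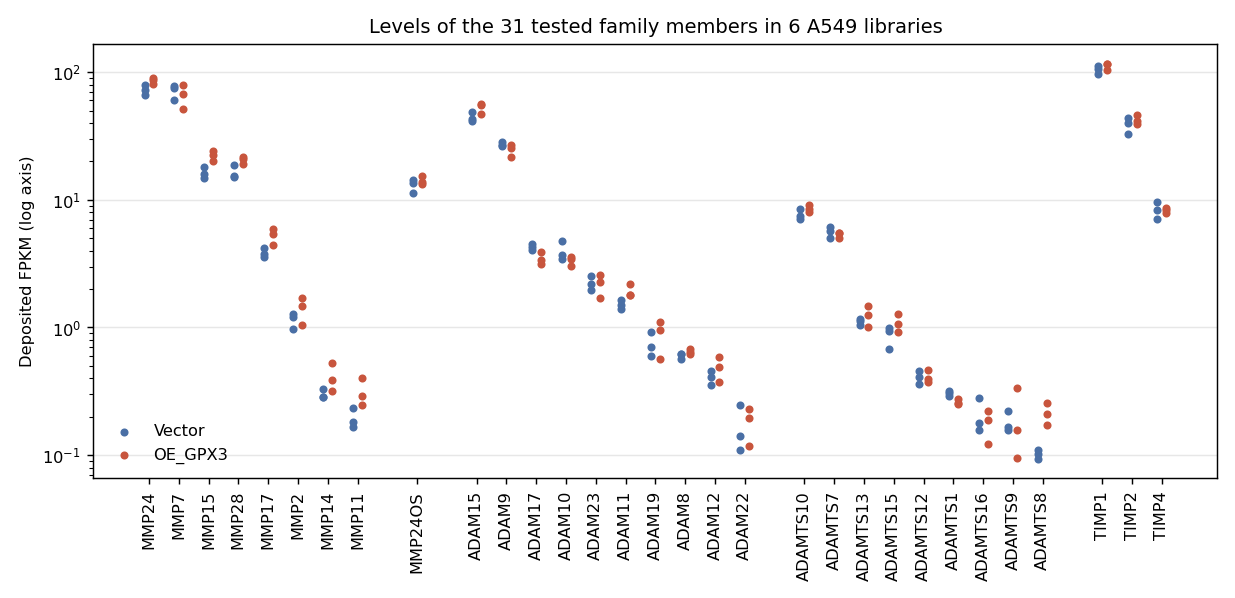
Deposited FPKM (log axis) of the 31 tested members, grouped by family and ordered by mean level, with 1 point per library (blue Vector, red OE_GPX3). TIMP1, MMP24 and MMP7 have the highest means, at 108, 79.2 and 68.7 FPKM, and the spread between members is far wider than that between the groups.

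Of the MMPs, 3 carried most of the signal: MMP24, MMP7 and MMP15 made up 86.8% of the summed FPKM of the 23 genes. MMP24 (MT5-MMP, a membrane-type protease best known from the nervous system) was at 65.9, 72.5 and 79.6 FPKM in the Vector libraries and at 80.8, 87.0 and 89.5 in OE_GPX3. MMP7 (matrilysin, a small secreted protease of epithelia that lacks the hemopexin domain) was at 77.3, 61.0 and 75.1 FPKM in Vector and at 68.0, 79.1 and 51.9 in OE_GPX3. The groups did not overlap for MMP24 and overlapped for MMP7, whose lowest value was that of OE_GPX3 replicate 3. MMP24 shares 18.1% of its exon bases with MMP24OS on the opposite strand. No source used here says whether reads were counted by strand, and reads of this pair may be mixed. MMP24OS itself had a mean of 13.7 FPKM.

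The membrane-type MMP15 (MT2-MMP) and MMP28 (epilysin, a secreted, furin-activated protease of epithelia) followed at means of 19.2 and 18.5 FPKM. MMP17 (MT4-MMP, held in the membrane by a lipid anchor) was at 4.54 FPKM. MMP2 (gelatinase A, which degrades type IV collagen of basement membranes) was at 1.28 FPKM, MMP14 (MT1-MMP, an activator of the MMP2 precursor) at 0.355 FPKM and MMP11 (stromelysin-3) at 0.253 FPKM. MMP9 (gelatinase B) had 12 counts in 6 libraries and MMP25 had 22. The collagenases and stromelysins, the classical secreted enzymes of tissue breakdown, were near or at the limit of detection: MMP1 had 22 counts, MMP3 had 28 and MMP10 had 33, and MMP8 and MMP13 had 0.

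MMP1, MMP3, MMP8, MMP10 and MMP13 lie in a cluster with MMP7. On chromosome 11, 9 members stand in 1 cluster of 435 kb, from MMP7 (102520508 to 102530753, minus strand, hg38) to MMP13 (102942995 to 102955734). All 9 are on the minus strand. MMP7 had 16689 counts over the 6 libraries and the other 8 genes had 85 together, so MMP7 gave 99.5% of the counts of the cluster. MMP20, the neighbour of MMP7 with its start site 94.6 kb away, had 0.

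**Figure D2:**
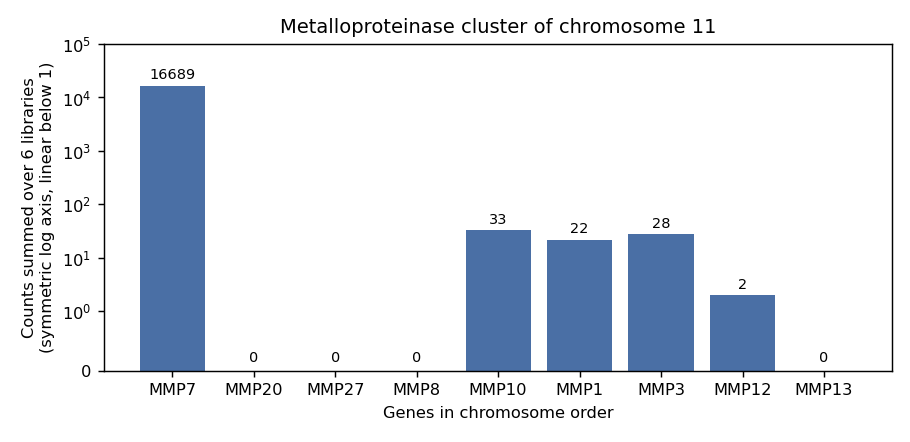
Counts summed over 6 libraries (symmetric log axis, linear below 1) for the 9 metalloproteinase genes of the chromosome 11 cluster, in chromosome order. MMP7 has 16689 counts, while MMP10, MMP3, MMP1 and MMP12 have 33, 28, 22 and 2 and the other 4 genes have 0.

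The sequences before the start sites of MMP7, MMP10 and MMP20 are shown because they share motif matches while the genes differ widely in level. Not all genes of the cluster have these matches, as given below. The sequence of ADAMTS7, a transcribed gene of another chromosome, is shown as an example of a GC-rich start. The 120 bases before the start are given 5′ to 3′ on the gene's strand, from RefSeq (GRCh38.p14). Capitals mark matches to 3 motifs, which were searched on both strands. The AP-1 element was searched as TGANTCA, where N is any base. The TATA box of core promoters was searched as TATAAA. The GC box, known as a site of SP1 and related factors, was searched as GGGCGG, and neighbouring GC boxes may overlap. The windows are chr11:102530748-102530867 for MMP7, chr11:102780629-102780748 for MMP10, chr11:102625333-102625452 for MMP20 and chr15:78811465-78811584 for ADAMTS7, all on the minus strand.
MMP7: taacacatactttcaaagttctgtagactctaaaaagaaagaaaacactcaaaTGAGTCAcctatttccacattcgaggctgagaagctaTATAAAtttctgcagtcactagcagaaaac
MMP10: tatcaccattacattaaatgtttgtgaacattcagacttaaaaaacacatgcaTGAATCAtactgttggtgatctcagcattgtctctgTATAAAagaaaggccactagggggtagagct
MMP20: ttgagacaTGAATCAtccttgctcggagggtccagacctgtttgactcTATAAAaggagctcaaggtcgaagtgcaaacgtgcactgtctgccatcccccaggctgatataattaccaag
ADAMTS7: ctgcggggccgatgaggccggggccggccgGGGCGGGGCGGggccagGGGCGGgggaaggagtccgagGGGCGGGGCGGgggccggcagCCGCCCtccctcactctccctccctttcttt

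In MMP7 and MMP10 the AP-1 match began 67 bases before the RefSeq start in both, and the TATA box 30 and 31 bases before it. In the MMP7 window 6 bases lie in GENCODE exons, so the start of MMP7 differs between the annotations. In MMP20 the matches began 112 and 72 bases before the annotated start. ADAMTS7 had 6 GC boxes and neither other motif in these 120 bases. GC content was 35.0% in MMP7, 36.7% in MMP10, 48.3% in MMP20 and 80.8% in ADAMTS7. MMP7 and MMP10 thus matched the same search patterns at nearly the same places, at 68.7 and 0.174 FPKM. The matched AP-1 letters differed, with TGAGTCA in MMP7 and TGAATCA in MMP10 and MMP20. A match describes the letters and shows no binding.

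Over the 250 bases before the start, 40 of the 67 members were found in the RefSeq table. A GC box stood in 18 of the 20 tested members found there and in 9 of the 20 untested ones, against 42.6% of all 35116 promoters of that length. The median GC content of these windows differed as well, at 73.4% in the tested members, 56.2% in the untested ones and 58.0% in all promoters. An AP-1 match stood in 2 of the 20 tested and 2 of the 20 untested members, against 6.57% of all promoters. A TATA box stood in 2 and in 5 of them, against 10.7% of all promoters. These shares rest on few genes and were not tested. Of the chromosome 11 cluster, MMP8 and MMP27 were found in the RefSeq table as well. MMP8 had a TATA box and no AP-1 match, and MMP27 had neither.

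ADAM15 and ADAM9 led the ADAMs. ADAM15, which carries an integrin-binding motif beside its protease domain, was at 41.4, 42.8 and 48.9 FPKM in Vector and 47.1, 55.1 and 56.0 in OE_GPX3. ADAM9, a broadly expressed protease, was at 28.4, 26.9 and 26.3 FPKM in Vector and 26.8, 25.4 and 21.8 in OE_GPX3. The groups overlapped for both genes. The main sheddases were lower, with means of 3.88 FPKM for ADAM17, which releases tumour necrosis factor and several ligands of the epidermal growth factor receptor, and 3.65 FPKM for ADAM10, which cuts Notch receptors and cadherins. Of the ADAMs without catalytic activity, ADAM23 and ADAM22, receptors of the secreted protein LGI1, were at 2.21 and 0.173 FPKM and ADAM11 at 1.72 FPKM, and the sperm or epididymis genes ADAM2, ADAM7, ADAM18 and ADAM29 were at 0 counts. ADAM19, ADAM8 and ADAM12 were at 0.805, 0.623 and 0.445 FPKM.

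No ADAMTS gene reached 10 FPKM. ADAMTS10, which binds fibrillin microfibrils, was at 8.15 FPKM, ADAMTS7, known for cutting cartilage oligomeric matrix protein, at 5.48 FPKM and ADAMTS13, the protease of von Willebrand factor, at 1.18 FPKM. The 4 tested genes of the proteoglycan-cleaving class were all under 1 FPKM: ADAMTS15 at 0.981, ADAMTS1 at 0.284, ADAMTS9 at 0.189 and ADAMTS8 at 0.158. The aggrecanases ADAMTS4 and ADAMTS5 had 9 and 0 counts. The procollagen propeptidases ADAMTS2, ADAMTS14 and ADAMTS3 had 41, 5 and 0 counts.

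The inhibitor TIMP1 led all members. It was at 105, 97.1 and 112 FPKM in Vector and 103, 116 and 116 in OE_GPX3, and it made up 68.9% of the summed FPKM of the 4 TIMPs. TIMP2, which inhibits MMPs and also helps MMP14 to activate the MMP2 precursor, had a mean of 40.5 FPKM and TIMP4 of 8.29 FPKM. TIMP3, the inhibitor of ADAM17 and of ADAMTS proteases that stays bound to the matrix, had only 30 counts in 6 libraries. TIMP1, TIMP3 and TIMP4 each lie inside a synapsin gene on the opposite strand (SYN1, SYN3 and SYN2). SYN1 and SYN3 had 4 counts each over all libraries, while SYN2 had 13 to 25 counts per library and shares 10.3% of the exon bases of TIMP4. Summed FPKM per library was 138 to 166 for the TIMPs, 169 to 214 for the MMPs, 83.0 to 92.6 for the ADAMs and 15.0 to 19.0 for the ADAMTS genes. The groups overlapped for each of the 4 sums. For the MMPs the highest Vector library, at 198, stood above the lowest OE_GPX3 library, at 194.

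Whether these genes differed with GPX3 overexpression was read from the fit over all 14458 tested genes. None of the 31 tested members was called by edgeR at an adjusted p under 0.05, against 0.263% of all genes tested. DESeq2 called MMP15, 1 of the 16 members to which it gave an adjusted p, against 1.44% of all genes with one. Limma called 0 of 19 on log2(FPKM + 1), against 0.0925% of all genes, 0 of 19 on log2(FPKM + 0.1), against 0.102%, and 0 of 51 with no filter on FPKM, against 0.00373%. In edgeR 0 members were called with upper-quartile scaling (0.36% of all genes), scaling by total counts (0.47%), a minimum mean of 1 CPM (0.307%), protein-coding genes alone (0.261%) or a correction for GC content (0.0277%). With no filter on low counts 1 of 51 was called, MMP15 (0.481%). Without OE_GPX3 replicate 1 there were 3 calls (4.47%): MMP15 and MMP28 higher and ADAM17 lower. No member was called without Vector replicate 1 (0.788%), Vector replicate 2 (0.0272%), Vector replicate 3 (0.237%), OE_GPX3 replicate 2 (0.00677%) or OE_GPX3 replicate 3 (0.0813%). At an unadjusted p under 0.05 in edgeR there were 8 members (25.8%), against 14.6% of all genes tested. Of these, 6 were higher in OE_GPX3, against 6.83% of all genes, and 2 were lower, against 7.76%. The 8 became 5 of 32 without Vector replicate 1 (9.89% of all genes), 3 of 32 without Vector replicate 2 (7.04%) and 4 of 31 without OE_GPX3 replicate 3 (9.17%). They became 9 of 32 without Vector replicate 3 (16.4%), 9 of 31 without OE_GPX3 replicate 1 (20.8%) and 9 of 32 without OE_GPX3 replicate 2 (13.5%). Log2 fold changes lay above 0 in 22 of the 31, with a median of 0.12, against 47.4% of all genes with a median of -0.016. One of the 31, ADAMTS8, had passed the filter on low counts only through the OE_GPX3 libraries. Without it 7 of 30 had an unadjusted p under 0.05 and the median was 0.12. In bulk libraries, fewer cells that express a gene and less RNA per cell cannot be told apart.

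**Figure D3:**
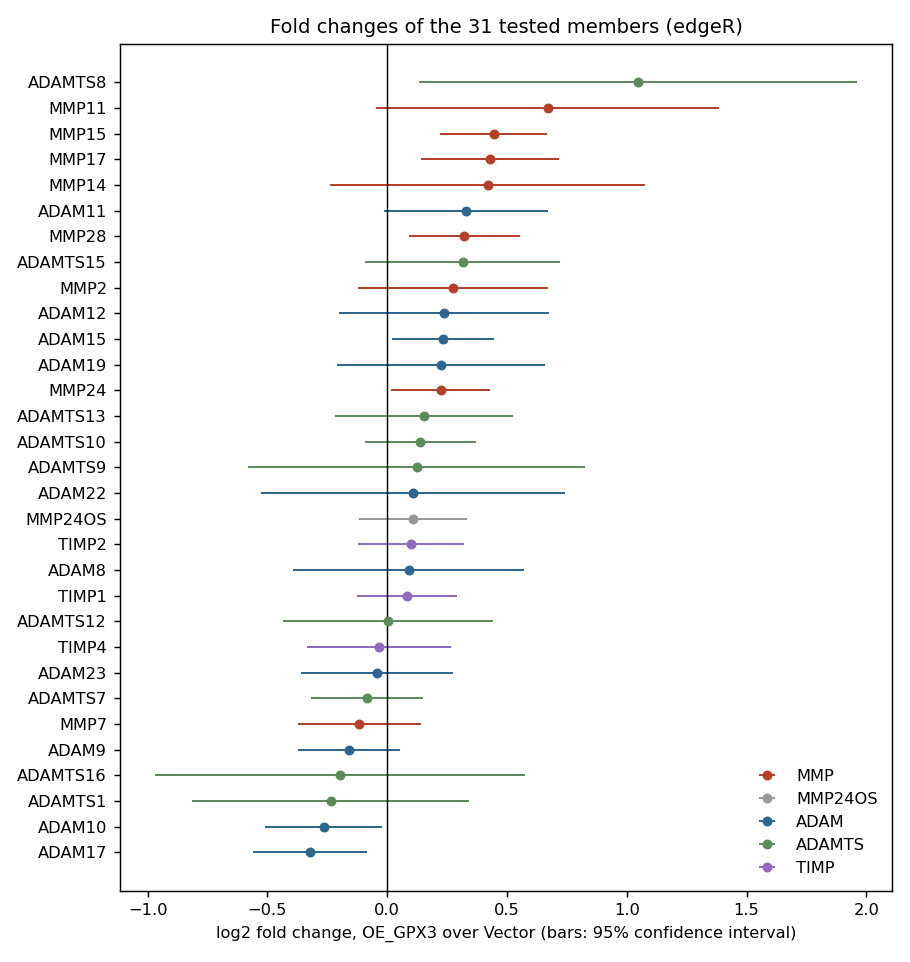
Log2 fold change of OE_GPX3 over Vector for the 31 tested members (points, edgeR) with 95% confidence intervals (bars), coloured by family. The interval lies above 0 for MMP15, MMP17, MMP28, MMP24, ADAM15 and ADAMTS8 and below 0 for ADAM17 and ADAM10, and 0 members passed an adjusted p of 0.05.

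MMP15 (ENSG00000102996, chromosome 16, 58025566 to 58046901, plus strand, hg38) had the smallest p of the members. It stood at 71.1, 66.3 and 79.9 CPM in Vector and at 108, 88.2 and 99.4 CPM in OE_GPX3. Every OE_GPX3 library was above every Vector library. The means were 72.4 ± 6.88 and 98.5 ± 9.89 CPM (SD, n = 3 each), a 1.36-fold difference and a log2 fold change of 0.44 (SE 0.11, 95% confidence interval 0.22 to 0.67). In edgeR the adjusted p was 0.0604, so MMP15 was not called. It was called in 4 of 18 other settings, among them DESeq2 (adjusted p = 0.0162), no filter on low counts (edgeR adjusted p = 0.0255) and leaving out OE_GPX3 replicate 1 (log2 fold change 0.37, edgeR adjusted p = 0.0283). Over the 18 settings its log2 fold change ran from 0.26 to 0.53 and its adjusted p from 0.0162 to 0.663.

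The other tested membrane-type MMPs also had fold changes above 0, from 0.22 to 0.44 on the log2 scale over the 4 genes, MMP15 included, and so had the furin-activated MMP28 and MMP11. MMP17 was at 15.4, 14.6 and 16.7 CPM in Vector and 23.8, 17.6 and 21.5 CPM in OE_GPX3, and the groups did not overlap. Its log2 fold change was 0.43 (SE 0.14, edgeR adjusted p = 0.169). MMP28 was at 44.4, 43.3 and 54.2 CPM in Vector and 55.4, 60.0 and 61.8 CPM in OE_GPX3, again without overlap, but with only a small gap between the highest Vector and the lowest OE_GPX3 library. Its log2 fold change was 0.32 (SE 0.11, edgeR adjusted p = 0.202), and without OE_GPX3 replicate 1 it was called (0.37, edgeR adjusted p = 0.0457). Over 18 other settings the adjusted p ran from 0.0457 to 0.722. MMP24, with the most counts of any member, was at 296, 324 and 354 CPM in Vector and 359, 383 and 393 CPM in OE_GPX3. The groups did not overlap, by a narrow gap, and its log2 fold change was 0.22 (SE 0.10, edgeR adjusted p = 0.313). MMP11 had 17, 17 and 20 counts in Vector and 23, 35 and 23 in OE_GPX3, a log2 fold change of 0.67 with a wide interval of -0.048 to 1.39. It shares 4.21% of its exon bases with the abundant CHCHD10 on the opposite strand.

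**Figure D4:**
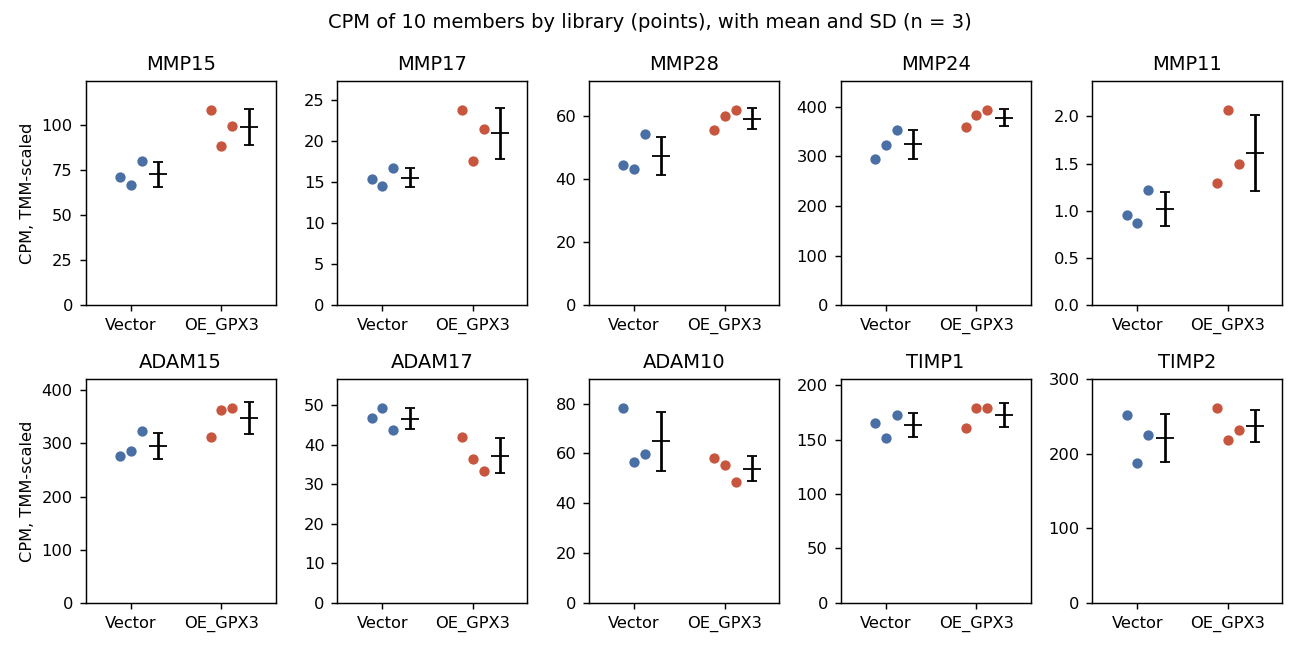
CPM (TMM-scaled, each axis from 0) of 10 members in the 6 libraries, with points for libraries (blue Vector, red OE_GPX3) and mean ± SD (n = 3) beside them. The groups do not overlap for MMP15, MMP17, MMP28, MMP24, MMP11 and ADAM17 and overlap for ADAM15, ADAM10, TIMP1 and TIMP2.

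The sheddases ADAM17 and ADAM10 had fold changes below 0. ADAM17 (ENSG00000151694, chromosome 2, 9488486 to 9556732, minus strand, hg38) was at 46.8, 49.3 and 43.8 CPM in Vector and 42.1, 36.4 and 33.3 CPM in OE_GPX3, with no overlap. Its log2 fold change was -0.32 (SE 0.12, edgeR adjusted p = 0.208), between -0.56 and -0.086 at 95% confidence. Without OE_GPX3 replicate 1 it was called (-0.42, edgeR adjusted p = 0.0299), with adjusted p values from 0.0299 to 0.711 over 18 other settings. Of its exon bases 12.3% are shared with IAH1 on the other strand, which had 829 to 1187 counts per library. ADAM10 was at 78.3, 56.5 and 59.8 CPM in Vector and 58.1, 55.2 and 48.5 CPM in OE_GPX3. The highest value, that of Vector replicate 1, stood apart, and the other Vector libraries overlapped OE_GPX3. Its log2 fold change was -0.27 (SE 0.12, edgeR adjusted p = 0.308). Without Vector replicate 1 it was -0.11 (edgeR adjusted p = 0.835), and over 18 other settings the adjusted p ran from 0.0842 to 0.85. ADAM15 lay on the other side of 0, at 0.23 (SE 0.10, edgeR adjusted p = 0.303), ADAM11 was at 0.33 (SE 0.17) and ADAM9 at -0.16 (SE 0.10). The ADAM9 value was -0.062 without OE_GPX3 replicate 3 and turned to 0.036 after the correction for GC content described below.

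ADAMTS8, a secreted protease known from lung, had few counts: 9, 9 and 7 under Vector and 21, 16 and 12 under OE_GPX3. It entered the test only through its OE_GPX3 libraries, so its size of change and the lack of overlap are favoured by the filter on low counts. The log2 fold change was 1.05, between 0.13 and 1.96 at 95% confidence (edgeR adjusted p = 0.287). ADAMTS15 was at 0.31 (SE 0.20, edgeR adjusted p = 0.464), and at 0.16 without Vector replicate 2 and 0.17 without OE_GPX3 replicate 1. The remaining 7 tested ADAMTS genes had unadjusted p values above 0.05 in edgeR. ADAMTS1 was the only member beside ADAM17 whose OE_GPX3 libraries were all below its Vector libraries, at 1.79 to 1.95 against 2.08 to 2.26 CPM. In all, the groups did not overlap for 9 of the 31 members, against 18.5% of all genes tested. OE_GPX3 was the higher group for 7 of them, against 8.62% of all genes, and the lower for 2, against 9.9%. Without ADAMTS8 there were 8 of 30, with OE_GPX3 higher for 6.

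For the TIMPs the intervals bounded any difference. TIMP1 was at 165, 151 and 173 CPM in Vector and 160, 179 and 179 CPM in OE_GPX3. Its log2 fold change was 0.081 with an interval of -0.13 to 0.29. TIMP2 was at 0.10 (interval -0.12 to 0.32) and TIMP4 at -0.034 (interval -0.34 to 0.27). The adjusted p in edgeR was 0.733, 0.688 and 0.931, and the groups overlapped for all 3. The sign of TIMP1 turned after the GC correction (-0.028), that of TIMP2 without Vector replicate 2 (-0.0069) and that of TIMP4 without Vector replicate 3 (0.083).

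GC content moved with these differences. Across the 31 tested members the GC content of the transcripts and the log2 fold change had a Spearman rho of 0.65, and across 14450 tested genes of 0.53, a description over genes that share the same 6 libraries. The 22 members above 0 had a median GC content of 59.8% and the 9 below 0 of 45.9%. MMP15, MMP17 and MMP28 had 65.3%, 66.6% and 61.5%, and ADAM17, ADAM10 and ADAM9 had 41.6%, 40.5% and 38.5%. The mean GC content behind the counts was 52.3% to 52.9% in the Vector libraries and 52.8% to 53.4% in the OE_GPX3 libraries. A correction then removed a GC trend from each library, which lowers rho by design. After it rho was 0.018 over all genes tested and 0.22 over the members. It would also remove a difference between the groups that follows GC content, and this cannot be told apart here. With the correction, 3 of the 31 had an unadjusted p under 0.05 in edgeR, against 9.35% of all genes tested. These were MMP15, ADAMTS7 and ADAMTS8. After that correction the log2 fold change of MMP15 was 0.27 (edgeR adjusted p = 0.367), of MMP17 0.24, of MMP28 0.18, of MMP24 0.089, of ADAM15 0.081, of ADAM17 -0.16 and of ADAM10 -0.084. None of these passed.

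**Figure D5:**
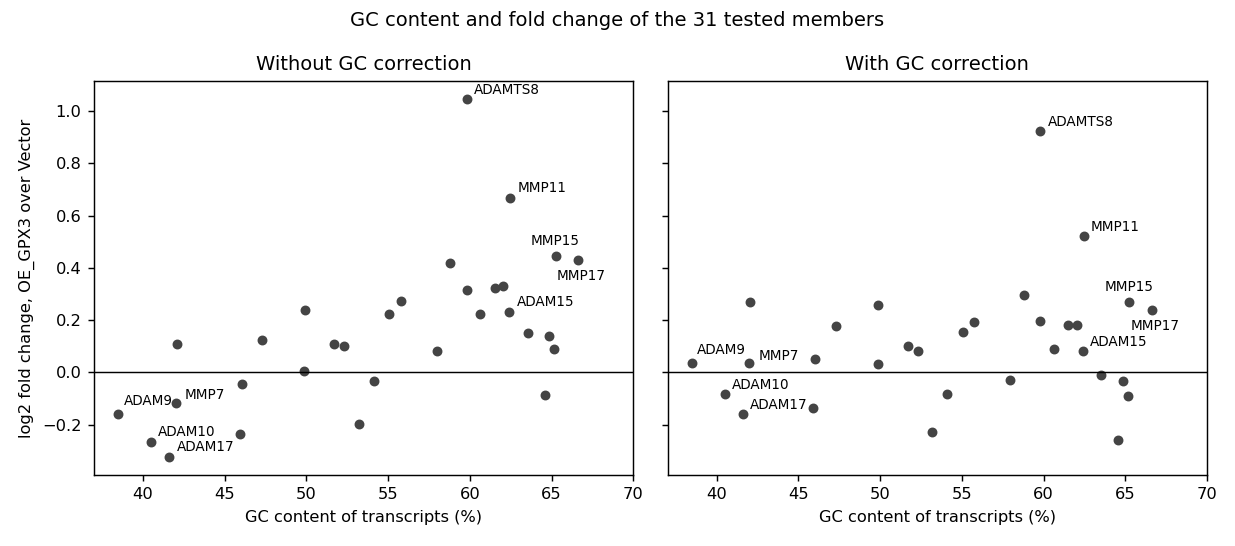
GC content of the transcripts (%) against the log2 fold change of OE_GPX3 over Vector for the 31 tested members, without (left) and with (right) removal of a GC trend per library. On the left ADAM9, ADAM10, ADAM17 and MMP7 are low in both measures and MMP15 and MMP17 high in both, with a Spearman rho of 0.65. On the right rho is 0.22, after a removal that lowers it by design.

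Genes that act on these families were taken from 7 lists. Their counts stand beside those of all tested genes, of which 0.263% were called, 14.6% had an unadjusted p under 0.05 and 47.4% lay above 0, with a median log2 fold change of -0.016. Of 7 tested activators of metalloproteinase precursors and of plasminogen, 0 were called, 3 had an unadjusted p under 0.05 and 6 had fold changes above 0. FURIN, which activates the membrane-type MMPs, was at 71.0 FPKM with a log2 fold change of 0.25 (edgeR adjusted p = 0.286), and PLAT, a plasminogen activator at 0.230 FPKM, at -1.03 (edgeR adjusted p = 0.169). Of 8 tested protease inhibitors other than TIMPs, 0 were called, 1 had an unadjusted p under 0.05 and 2 lay above 0. SPINT2, an inhibitor of membrane serine proteases, was at 785 to 904 CPM in Vector and 1003 to 1086 CPM in OE_GPX3, a log2 fold change of 0.31 (edgeR adjusted p = 0.166). DESeq2 called it (adjusted p = 0.0452, with 1.44% of all genes called). So did edgeR without OE_GPX3 replicate 1 (adjusted p = 0.0297, with 4.47% of all genes called). The adjusted p of SPINT2 ran from 0.0297 to 0.696 over the other settings. TFPI2 was at 86.5 FPKM with -0.20 (edgeR adjusted p = 0.374).

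All 9 partners of ADAM10 and ADAM17 were tested. These are the iRhoms and FRMD8, which ADAM17 needs to reach the cell surface, and 6 tetraspanins that carry ADAM10. None was called by edgeR, 1 had an unadjusted p under 0.05, and all 9 fold changes lay above 0 (47.4% of all genes), from 0.014 to 0.22, while those of both sheddases lay below 0. The median GC content of the 9 was 58.9%, against 49.8% over all genes tested. TSPAN15 was at 149 to 159 CPM in Vector and 172 to 185 CPM in OE_GPX3 (log2 fold change 0.22, edgeR adjusted p = 0.308).

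Of 28 tested proteins that ADAM10 and ADAM17 shed, EREG was called lower, against 0.166% of all genes, and 27 were not called. An unadjusted p under 0.05 was reached by 7 of the 28, against 14.6% of all genes, and 16 lay above 0, against 47.4%. EREG, a ligand of the epidermal growth factor receptor, stood at 38.4, 49.7 and 34.4 CPM in Vector and 25.5, 23.5 and 26.2 CPM in OE_GPX3, a log2 fold change of -0.70 (SE 0.13, edgeR adjusted p = 0.00654). The related ligands AREG and HBEGF were at -0.44 and -0.67 without passing (edgeR adjusted p = 0.0714 and 0.151), and the groups did not overlap for either. The EREG call was lost without Vector replicate 2 (-0.54, edgeR adjusted p = 0.447), without OE_GPX3 replicate 2 (-0.65, adjusted p = 0.0761), without OE_GPX3 replicate 3 (-0.73, adjusted p = 0.0582) and after the GC correction (-0.50, adjusted p = 0.247), and limma on FPKM did not call it either (adjusted p = 0.12 to 0.663). Over all other settings its adjusted p ran from 5.01e-05 to 0.663. AREG was called in 6 of the other settings. Among them were those without OE_GPX3 replicate 1 (-0.42, edgeR adjusted p = 0.0179) and without Vector replicate 1 (-0.50, edgeR adjusted p = 0.0225). In these 4.47% and 0.788% of all genes were called. The adjusted p of AREG ran from 0.0179 to 0.666 over all other settings.

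Of the 13 inducers of metalloproteinase transcription (AP-1 and ETS factors and basigin), 0 were called by edgeR, 7 had an unadjusted p under 0.05 (14.6% of all genes), and 2 lay above 0 (47.4% of all genes). Their median log2 fold change was -0.25, against -0.016 over all genes. Their median GC content was 58.1%, against 58.9% for the partners of ADAM10 and ADAM17, whose fold changes all lay above 0. Of the 7, 6 were lower in OE_GPX3: FOS, FOSB, FOSL1, JUN, ETS1 and ETV5. All 6 had their highest CPM in the same library, Vector replicate 2. Without that library edgeR called 4 genes in all, against 38 with it. For FOS, FOSB, JUN, ETS1 and ETV5 every OE_GPX3 library was below every Vector library, and for FOSL1 the groups overlapped. These were 5 of the 13, against 9.9% of all genes tested. The AP-1 subunit FOSB had 117, 214 and 129 counts in Vector and 64, 102 and 73 in OE_GPX3. Scaled to CPM the groups did not overlap, with a log2 fold change of -0.84 (edgeR adjusted p = 0.0604). FOSB was called in 6 of the other settings. Among them were those without OE_GPX3 replicate 1 (-0.66, edgeR adjusted p = 0.0405) and without Vector replicate 1 (-0.99, edgeR adjusted p = 0.00137). In these 4.47% and 0.788% of all genes were called. The adjusted p of FOSB ran from 0.00137 to 0.672 over all other settings that gave one. ETS1 and ETV5 were at -0.48 and -0.37 (edgeR adjusted p = 0.159 and 0.167). Of 5 tested ADAMTS-like genes and ADAMTS substrates 0 were called (0.263% of all genes), 2 had an unadjusted p under 0.05 and 3 lay above 0, with the proteoglycan VCAN at -0.33 (edgeR adjusted p = 0.294). Of 3 tested other proteases of the same clan 0 were called, 1 had an unadjusted p under 0.05 and 2 lay above 0. BMP1, the procollagen C-proteinase, was at 0.28 (edgeR adjusted p = 0.208) and PAPPA, a protease of insulin-like growth factor binding proteins, at -0.16 (edgeR adjusted p = 0.607). VCAN and PAPPA were called lower without OE_GPX3 replicate 1 (-0.47 and -0.37, edgeR adjusted p = 0.0364 and 0.0242). In that setting 657 genes in all (4.47%) were called, 258 of them lower. In other settings the adjusted p values of VCAN and PAPPA were up to 0.754 and 0.968.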

How the data were processed

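RNA of 6 A549 libraries was sequenced. Per the labels' protocols the libraries were made from small RNA, while 97.2% to 97.6% of the deposited counts lie on protein-coding genes. How the libraries were made is therefore uncertain, and with it how closely FPKM follow transcript levels between genes. The authors deposited whole-number counts per gene, and the submitters' processing notes name hg38. No source used here gives the aligner, the counting tool or the use of strand. The deposited FPKM equal the count per gene length and a constant per library that differs from the total count by -4.52% to 4.9%. All 58735 gene positions match GENCODE release 29.

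Libraries were grouped by title. Genes were filtered with edgeR 4.0.16 (filterByExpr, minimum count 10), scaled by TMM and compared by the quasi-likelihood test (robust, two-sided, Benjamini-Hochberg adjustment over all tested genes, adjusted p under 0.05). CPM are counts per 1e+06 counts of tested genes, scaled by TMM. Alternatives used DESeq2 1.42.0, limma 3.58.1 on log2(FPKM + 1) or log2(FPKM + 0.1) for genes with a mean of at least 1 FPKM, where fold changes of low genes are understated, other scalings and filters, a replicate block, and a lowess trend on GC content of GENCODE transcripts removed per library. The scripts were tested on simulated data. Replicates of a group differed by more than sampling noise.

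The members and lists were chosen with earlier results of these data known. Fold changes are named for MMP15, the tested TIMPs, called members and the 12 tested members with the smallest p, and for up to 4 genes per list plus called ones. The promoters printed and the overlapping neighbours were chosen after the values were seen.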

Additional observations from a re-analysis of the deposited data

How the results depend on the processing

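The count of called genes, 38 with all libraries, was 68 with scaling by total counts, 119 with DESeq2, 129 with no filter on low counts, 4 after the GC correction, 10 with limma on log2(FPKM + 1), 11 with limma on log2(FPKM + 0.1) and 1 with no filter on FPKM. Leaving out 1 library gave 1 (without OE_GPX3 replicate 2) to 657 (without OE_GPX3 replicate 1). Without Vector replicate 1, Vector replicate 2 and OE_GPX3 replicate 3 it was 116, 4 and 12. Members called, 0 with all libraries, were 1 with DESeq2 and with no filter, MMP15 both times, and 0 to 3 when 1 library was left out, the 3 being MMP15, MMP28 and ADAM17 without OE_GPX3 replicate 1, where 4.47% of all genes were called. Replicate numbers are shared between groups. Deviations of same-numbered libraries correlated at 0.44, 0.041 and 0.30, and those of differently numbered libraries at -0.36 to 0.12. The labels do not say that the numbers pair the libraries, so the main fit did not take them as pairs. With a replicate block 231 genes and 1 member, MMP15 (adjusted p = 0.0179), were called (1.6% of all genes), and with the GC correction added to the replicate block 49 genes and 0 members. Signs turned for TIMP1 (-0.028 after the GC correction, -0.028 with the block added), ADAM9 (0.036 and 0.033), TIMP2 (-0.0069 to 0.20 over the left-out libraries) and TIMP4 (-0.13 to 0.083). No sign turned for the other 11 members named with a fold change. Counts were few for ADAMTS8 (7 to 21 per library) and MMP11 (17 to 35), and counting error is correspondingly wide there.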

Other observations

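Beside the protein-coding members, 20 genes of other classes carry names of these families, mostly pseudogenes and antisense transcripts. Of these, 7 had any count and 1 had enough to be tested. MMP25-AS1 (ENSG00000261971, an antisense gene at chromosome 16, 3037403 to 3059370, minus strand, hg38) had 59, 67 and 46 counts under Vector and 68, 40 and 46 under OE_GPX3, more in each library than MMP25 had in all 6 together (22). Of the exon bases of MMP25, 35.2% are shared with MMP25-AS1 on the opposite strand. The use of strand in counting is not known, so reads of this pair may be mixed or missing. The log2 fold change of MMP25-AS1 was -0.066, between -0.56 and 0.43 at 95% confidence (edgeR adjusted p = 0.917), and the groups overlapped. The pseudogenes of ADAMTS7 had few counts, 23 in all libraries for ADAMTS7P4, 8 for ADAMTS7P3 and 2 for ADAMTS7P1, beside 651 to 796 counts per library for ADAMTS7.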
